A study of Rattus norvegicus with 4 samples.

Results

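The 10 genes examined encode the channels, sensors and pump that govern the calcium store of the endoplasmic reticulum: Stim1, Stim2, Orai1, Orai2, Itpr1, Itpr3, Ryr1, Ryr2, Ryr3 and Atp2a2. They were taken as a fixed list of gene symbols and found on the array through the RefSeq transcript accession of each probe, which gave 12 of 45598 probes and 8 of the 10 genes. No probe was matched to Ryr1 or Ryr3, which are not analysed here. Matching left 24489 probes without a symbol, so probes of these or of the other genes may be on the array unnamed. RNA came from rat oligodendrocyte precursors (OPCs), the proliferating progenitors of the cells that make myelin, isolated from cortices at postnatal day 2 and kept with bFGF and PDGF for 3 days, although the sample labels name oligodendrocytes and give another time in culture. Both groups were transfected with Lipofectamine RNAiMax and 50 nM of an RNA, which was a mimic of miR-125a-3p in one group and a negative control (miR-neg) in the other, and RNA was measured 48 h later. Each group has 2 samples with 1 single-colour Agilent array each, and the labels do not say that the 2 came from different animals or cultures. The spread behind each p-value is therefore that of these samples and may be technical.

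The store is filled by SERCA pumps and emptied through inositol trisphosphate (IP3) receptors and ryanodine receptors. When it empties, STIM proteins in its membrane sense the loss and open ORAI channels in the plasma membrane, which is called store-operated entry. In the oligodendrocyte lineage, calcium signals of this kind are known to accompany the response of precursors to growth factors and transmitters and their later maturation.

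The sequence that was raised in the treated cells is shown because it defines the comparison. Rat miR-125a-3p lies at chr1:67350727-67350748 on the plus strand of GRCr8 (RefSeq) and has 22 bases, with the seed, bases 2 to 8, in capitals.
rno-miR-125a-3p: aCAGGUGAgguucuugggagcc

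Of the 12 probes of the store genes, 9 stood well above background on 2 or more arrays, and they cover 7 genes. The probe of Itpr3 and the second probes of Orai2 and Ryr2 were well above background on 0 arrays. In limma, 0 of the 7 genes passed an adjusted p of 0.05, where 0.687% of all 23155 features did (0.38% higher and 0.307% lower). At an unadjusted p under 0.05 there were 2 of 7, Itpr1 and Ryr2, both higher after the mimic, where 19.5% of all features had such a p (10.5% higher and 8.97% lower). Ryr2 was well above background only on the mimic arrays, so it entered the test through the group where it was high, and its direction is not counted as support. With a variance trend, which called 8.84% of all features (4.39% higher and 4.45% lower), and with normexp background correction run on median spot signals, which called 6.91% (3.58% of all features lower), 0 of these genes passed either. The groups did not overlap in 5 of 7 genes, which has to be read against 52.9% of all features. Itpr1 and Ryr2, the latter favoured by the filter, were the 2 that lay higher after the mimic, against 28.7% of all features, and Stim1, Orai1 and Atp2a2 were the 3 that lay lower, against 24.1%. When every array had to be above background, Ryr2 dropped out and 4 of 6 genes had groups that did not overlap, 1 higher and 3 lower. The median log2 difference over the 7 genes was -0.05, beside 0.01 over all features.

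**Figure D1:**
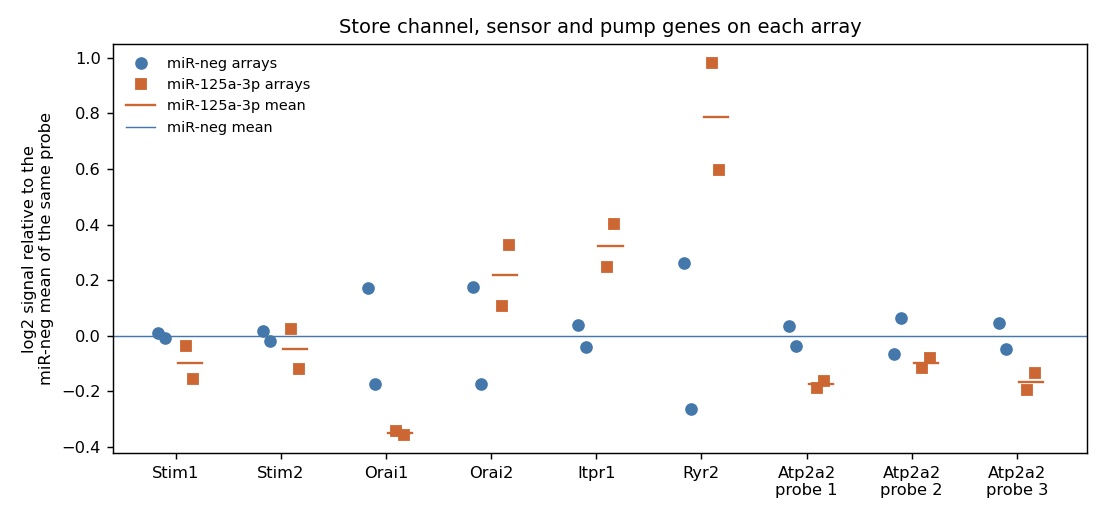
The plot of array values by gene shows the log2 signal of each of the 9 kept probes on every array (circles, miR-neg; squares, miR-125a-3p), relative to that probe's miR-neg mean, with short lines at the miR-125a-3p means. Atp2a2 has 3 probes, the other genes 1 each; the Ryr2 squares sit highest, the Orai1 squares lie together below both circles, and the Stim2 and Orai2 groups overlap.

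The whole-array values bear on all of these results. The 75th percentile of the signal lay between 679 and 745, and 26332 to 28138 probes were well above background per array. In markers of the labelled cell type, 9 of 10 OPC genes had a probe and all 9 were tested. Their summed levels (linear, relative to the 75th percentile) were 373 and 399 in miR-neg and 379 and 398 after the mimic. Olig1, Sox10 and Olig2 were the brightest in this sum, with log2 differences of 0.18, -0.08 and -0.01. Of the OPC markers 6 of 9 lay above 0 (median 0.08), while Pdgfra was at -0.37 (limma adjusted p = 0.125). Mature oligodendrocyte markers, tested in 9 of 10, with Ermn not above background, summed to 885 and 910 against 602 and 586. Of these, 0 of 9 lay above 0 (median log2 difference -0.64), and Aspa fell (-1.55, limma adjusted p = 0.0401). Astrocyte markers, tested in 10 of 10, summed to 182 and 194 against 210 and 213, a sum in which Aldoc was bright and had a log2 difference of 0.10. Of the astrocyte markers 9 of 10 lay above 0 (median 0.49), with Aqp4 at 1.53, Gja1 at 1.25 and Apoe at 1.10 (limma adjusted p = 0.053, 0.0842 and 0.0517), and Aldh1l1 rose (1.89, adjusted p = 0.0333). The other astrocyte markers moved less, with Gfap at 0.66, Slc1a3 at 0.32, Sox9 at 0.08, Slc1a2 at 0.05 and Fgfr3 at -0.14. Microglial markers, tested in 8 of 10 with Csf1r and Ptprc not above background, summed to 3.31 and 3.63 against 3.82 and 4.37, a sum in which Cx3cr1 (-0.06) and P2ry12 (-0.00075) were bright. The microglial median was 1.31, with 6 of 8 above 0: C1qa rose (1.44, limma adjusted p = 0.0373), and Tyrobp, Fcer1g, Aif1 and C1qb were at 1.36, 1.40, 1.56 and 1.27 (adjusted p = 0.0584, 0.077, 0.0515 and 0.0967). Neuronal markers, tested in 8 of 10 with the vesicular glutamate transporters Slc17a7 and Slc17a6 not above background, summed to 5.15 and 5.59 against 5.34 and 5.75. Fibroblast, pericyte and muscle markers, tested in 10 of 12 with Rgs5 and Lum not above background, summed to 1.04 and 1.1 against 1.43 and 1.7 (median 0.40, 8 above 0). Among them Tagln rose (1.21, limma adjusted p = 0.0373), while Des and Acta1 lay below 0 (-0.38 and -0.21). The part of these cell types in the store gene values was not tested, and in bulk RNA fewer cells of a type and less RNA per cell cannot be told apart.

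STIM1 and STIM2 are the sensors, single-pass membrane proteins whose luminal calcium-binding domain reports the filling of the store. The Stim1 probe gave processed signals of 3420 and 3080 in miR-neg and 3120 and 2930 after the mimic. Relative to the 75th percentile of each array this was 2.20 and 2.18 against 2.15 and 2.03 on the log2 scale. The mimic arrays lay below both controls, by less than the gap between the mimic arrays for the nearer one. The log2 difference was -0.10 (SE 0.08, 95% interval -0.33 to 0.14, n = 2 per group, limma adjusted p = 0.582), so that a level from 0.795 to 1.1 times the control falls inside the interval. Without miR-125a-3p replicate 1 the Stim1 difference was -0.16, and without miR-125a-3p replicate 2 it was -0.04.

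The Stim2 probe gave signals of 9040 and 8020 in miR-neg and 8540 and 7890 after the mimic. On the normalised log2 scale the values were 3.60 and 3.56 against 3.61 and 3.46. The groups overlapped, with a mimic array as both the highest and the lowest value. The log2 difference of Stim2 was -0.05 (SE 0.09, 95% interval -0.30 to 0.20, limma adjusted p = 0.808).

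ORAI proteins form the pore of store-operated entry, and Orai1 encodes the founding member of the family. The Orai1 probe gave signals of 371 and 266 in miR-neg and 245 and 248 after the mimic. On the normalised log2 scale these were -1.01 and -1.35 against -1.52 and -1.53. Both mimic arrays lay below both controls and close to each other, and miR-neg replicate 1 stood well above the other 3 arrays. The log2 difference was -0.35, or 0.785 times the control (SE 0.14, 95% interval -0.74 to 0.04, n = 2 per group, limma adjusted p = 0.293). Its size depended on a single control array: it was -0.18 without miR-neg replicate 1 and -0.52 without miR-neg replicate 2. With normexp background correction, the Orai1 difference was -0.33 with an adjusted p of 0.0598, the smallest that any of the 7 genes reached in any setting.

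Orai2 was dim on every array. Its kept probe gave signals of 30.7 and 21.9 in miR-neg and 27.6 and 32.8 after the mimic, well above background on all 4 arrays. The log2 values were -4.60 and -4.95 against -4.67 and -4.45, and the groups overlapped. The log2 difference was 0.22 (SE 0.16, 95% interval -0.22 to 0.66, limma adjusted p = 0.521), and it was 0.02 with normexp. It was 0.39 without miR-neg replicate 1, 0.33 without miR-125a-3p replicate 1, 0.11 without miR-125a-3p replicate 2 and 0.04 without miR-neg replicate 2. The second Orai2 probe gave 7.3 and 3.67 against 6.61 and 11.9, not well above background on any array. Orai3, the family member outside the 10 genes, had a log2 difference of -0.11 (95% interval -0.33 to 0.12, limma adjusted p = 0.53), so that 0 of the 3 ORAI genes passed.

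**Figure D2:**
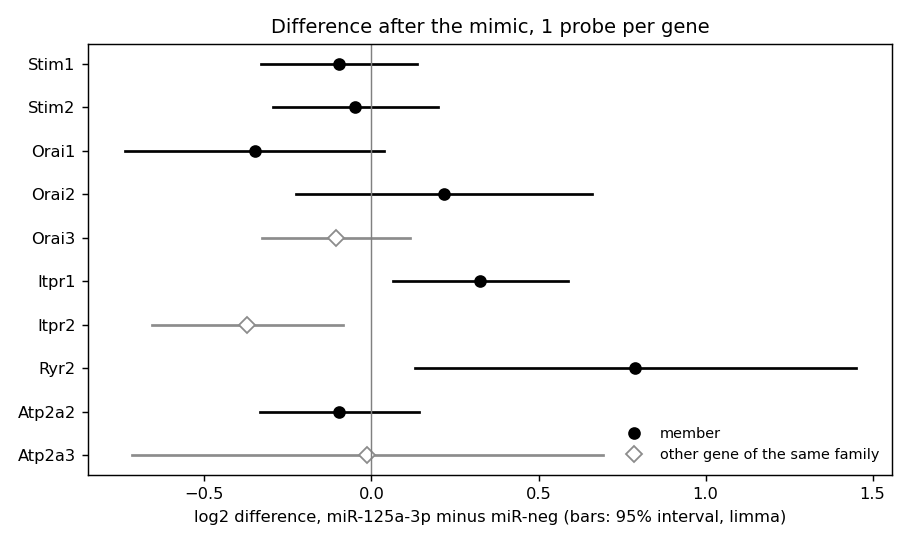
The plot of differences by gene gives the log2 difference, miR-125a-3p minus miR-neg, with its 95% interval from limma for the 7 tested genes (filled circles) and 3 relatives, Orai3, Itpr2 and Atp2a3 (open diamonds). The intervals of Itpr1 and Ryr2 lie above 0 and that of Itpr2 below 0 before adjustment over all features, and the other 7 cross 0.

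IP3 receptors are the release channels that open when receptors coupled to phospholipase C are stimulated. The Itpr1 probe is printed at 10 places on the array, and the mean over its spots gave signals of 229 and 198 in miR-neg and 250 and 284 after the mimic. On the normalised log2 scale the values were -1.70 and -1.78 against -1.49 and -1.34, with both mimic arrays above both controls. The log2 difference was 0.33, or 1.25 times the control (SE 0.10, 95% interval 0.06 to 0.59, unadjusted p = 0.0259, limma adjusted p = 0.198), and it did not pass. It ranged from 0.25 to 0.40 when any 1 array was left out.

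The replicate spots show how finely a single hybridisation was read. The Itpr1 spots lay between -1.82 and -1.56 on miR-neg replicate 1 and between -1.89 and -1.57 on miR-neg replicate 2. They lay between -1.56 and -1.35 on miR-125a-3p replicate 1 and between -1.49 and -1.26 on miR-125a-3p replicate 2. The SD among spots of one array was 0.06 to 0.09 on the log2 scale, while the array means of Itpr1 differed by 0.08 within miR-neg and by 0.15 within the mimic group. Spots of one array share their RNA and are not replicates of a condition, so they enter the test as 1 mean per array.

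**Figure D3:**
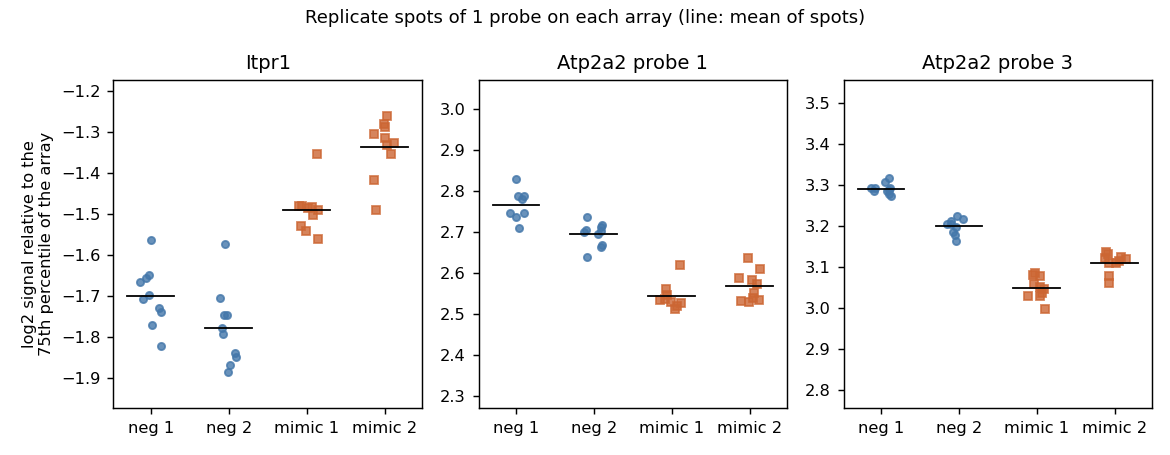
The plot of replicate spots shows every unflagged spot of the Itpr1 probe and of Atp2a2 probes 1 and 3 on each array (log2 signal relative to the array's 75th percentile; circles, miR-neg; squares, miR-125a-3p; lines, means of spots). The Itpr1 means are -1.70 and -1.78 against -1.49 and -1.34, and for both Atp2a2 probes the mimic means lie below both control means.

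The Itpr3 probe gave signals of 4.99 and 4 in miR-neg and 7.56 and 9.52 after the mimic and was not well above background on any of the 4 arrays. The lowest signals called well above background were 7.63 to 11.9 per array, so no fold is given for Itpr3. Itpr2, the third gene of the family and not among the 10, lay lower after the mimic at 0.71 and 0.75 against 1.21 and 1.00 (log2). Its difference was -0.37 (SE 0.10, 95% interval -0.66 to -0.09, unadjusted p = 0.0221, limma adjusted p = 0.188). The IP3 receptor genes that could be tested thus lay on opposite sides of 0, and neither passed. Among genes with a symbol, those with array values closest to Itpr1, after centring over the 4 arrays, were Lama5, Bub1b and Msantd5. Their root mean square differences from Itpr1 were 0.0021, 0.0069 and 0.0081 on the log2 scale. With 4 arrays and 11676 genes to choose from, close matches are easily found, and shared regulation was not tested.

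Ryanodine receptors are large release channels best known from muscle and neurons, and RYR2 is the form of heart and brain. Its brighter probe gave signals of 18.1 and 11.5 in miR-neg, well above background on 0 of 2 arrays, and 28.1 and 22 after the mimic, well above background on 2 of 2. On the normalised log2 scale the values were -5.36 and -5.89 against -4.64 and -5.03. Both mimic arrays lay above both controls. The means were -4.84 after the mimic and -5.63 in the controls, a ratio of 1.73 (95% interval 1.1 to 2.73, limma log2 difference 0.79, SE 0.24, adjusted p = 0.206), and Ryr2 did not pass. The Ryr2 signal of each control array, although not called well above background, was above the dimmest signal so called there, so that no lower bound other than this plain ratio could be set, and a ratio near background is uncertain. Normexp brought the difference to 0.13, and leaving out 1 array gave 0.53 (without miR-neg replicate 2) to 1.05 (without miR-neg replicate 1). The second Ryr2 probe gave 4.23 and 3.35 against 3.1 and 3.58 and was well above background on 0 arrays.

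Atp2a2 encodes SERCA2, the pump that returns calcium to the store in most cells. It was the only one of these genes with several kept probes, which represent 2 RefSeq transcripts. Probe 2 (A_44_P187080), the brightest and the one that stood for the gene, gave signals of 55000 and 54700 in miR-neg and 50000 and 52400 after the mimic. Its log2 values were 6.20 and 6.33 against 6.15 and 6.19, and both mimic arrays lay below both controls by a margin smaller than the gap between the controls. The log2 difference was -0.10 (SE 0.09, 95% interval -0.34 to 0.14, limma adjusted p = 0.601). It was -0.16 without miR-neg replicate 1 and -0.03 without miR-neg replicate 2.

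The other Atp2a2 probes, which share the second transcript, are each printed at 10 places. Probe 1 (A_44_P1089241) gave 5070 and 4390 against 4090 and 4250, with a log2 difference of -0.17 (95% interval -0.39 to 0.04). Probe 3 (A_64_P096184) gave 7290 and 6230 against 5810 and 6190, with a log2 difference of -0.16 (95% interval -0.40 to 0.07). At all 3 probes both mimic arrays lay below both controls, and with every probe as its own feature limma's adjusted p-values were 0.612 (probe 2), 0.342 (probe 1) and 0.383 (probe 3). Probes of one gene read the same RNA and are not independent replicates. The related pump gene Atp2a3 was dim, with overlapping groups and a log2 difference of -0.01 (95% interval -0.72 to 0.69, limma adjusted p = 0.985).

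The Atp2a2 promoter is shown because the pump and the luminal proteins of the store are known to answer to endoplasmic reticulum stress, whose response element contains a CCAAT box. The window runs from 250 bases before to 50 bases after the start of Atp2a2, chr12:39733269-39733568 on the plus strand of GRCr8 (RefSeq), with 1 CCAAT match and 3 GGGCGG matches, on either strand, in capitals.
Atp2a2: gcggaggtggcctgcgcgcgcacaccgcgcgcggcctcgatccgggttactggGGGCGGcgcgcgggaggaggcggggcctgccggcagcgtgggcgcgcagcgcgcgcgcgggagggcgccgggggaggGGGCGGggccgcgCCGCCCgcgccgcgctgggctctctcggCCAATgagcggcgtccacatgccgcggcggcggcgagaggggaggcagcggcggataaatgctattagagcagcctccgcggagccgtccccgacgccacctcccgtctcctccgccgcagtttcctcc

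Windows were found for 9 of the 10 genes, 10 windows in all since Ryr3 has several. CCAAT occurred in 6 of 10 windows and in 37.5% of all 33469 promoter windows, and GGGCGG in 9 of 10 and in 33.1%, both strands searched. The full stress element, CCAAT and CCACG with 9 bases of any kind between them, overlaps the CCAAT search. Exact matches to it occurred in 0 of the 10 windows and in 0.0657% of all windows. In the Atp2a2 window the CCAAT is followed, after 9 bases, by CCACA, which differs from the element at the last base. Such near matches were not counted in any window. Among the luminal proteins it was found in 5 of 15 genes with a window, of which Calr, Canx, Hsp90b1 and Hspa5 are described here. Hsp90b1 holds 2 sites, of which 1 is shown. The sites are printed in the direction of the element, with the fixed bases in capitals, at chr19:40213135-40213153 (minus strand, Calr), chr10:35158069-35158087 (minus, Canx), chr7:23012347-23012365 (plus, Hsp90b1) and chr3:38452973-38452991 (plus, Hspa5) of GRCr8.
Calr: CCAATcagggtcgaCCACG
Canx: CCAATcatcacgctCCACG
Hsp90b1: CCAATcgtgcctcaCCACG
Hspa5: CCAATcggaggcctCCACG
The 4 genes that share this element did not lie on the same side of 0. The log2 differences were -0.26 for calreticulin (Calr), 0.50 for calnexin (Canx), 0.09 for Hsp90b1 and -0.20 for the chaperone gene Hspa5, and 0 of the 4 passed in limma (adjusted p = 0.22, 0.095, 0.706 and 0.337 in the same order). A match of letters is a description and no measure of binding.

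The other genes of the pathway were examined as 8 lists of 162 genes, of which 145 had a probe and those above background were tested. In limma 0 of the tested genes passed, with 31 at an unadjusted p under 0.05 (15 higher, 16 lower), or 24.8% beside 19.5% of all features. Only 11676 of the 23155 features were genes with a symbol, and the lists hold only such genes. The share among genes with a symbol alone was not computed, so these shares are not like for like. The 15 higher include Sln and Plch1, which were well above background only on the mimic arrays. These entered the test through the group where they were high, and their direction is not counted as support. The median log2 difference of the tested genes was 0.04, and 72 lay above 0 and 53 below. Other settings gave other counts: 17 (13.6%) passed with a variance trend, where 8.84% of all features did, and 12 (9.6%) with normexp on median spot signals, which changes both the signal and the background correction and called 6.91% of all features.

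Among partners of store-operated entry, 6 of 15 tested genes lay above 0 and 9 below (median -0.04). Tmem178a, which encodes a negative regulator of STIM1, had a log2 difference of -0.44, the scaffold gene Homer3 -0.37 and the channel gene Trpc1 -0.36. Limma's adjusted p-values were 0.102, 0.123 and 0.206 for Tmem178a, Homer3 and Trpc1, with -0.20 at a second Homer3 probe. Saraf, which encodes a brake on store-operated entry, lay at 5.29 and 5.31 against 5.29 and 5.22. None of the 15 passed, a count of 0 in limma with 4 (26.7%, beside 19.5% of all features) at an unadjusted p under 0.05. Of these, Tmem178a and Homer3 were called under a variance trend, as were 8.84% of all features, and under normexp, as were 6.91%. Trpc1 was called under the variance trend (limma adjusted p = 0.0435) and not under normexp (limma adjusted p = 0.0645).

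Among genes that make and break down IP3, 10 of 23 lay above 0 and 13 below (median -0.04). The inositol monophosphatase gene Impa2 had the smallest p of all tested pathway genes, with values of -0.87 and -0.80 against -0.14 and -0.17. Its log2 difference was 0.68 (SE 0.08, 95% interval 0.47 to 0.89, limma adjusted p = 0.0615). Impa1, its paralogue, lay on the other side of 0 at -0.34 (adjusted p = 0.139). The phospholipase gene Plcb1 had a log2 difference of -0.41 (adjusted p = 0.127), with -0.65 and -0.60 at its other kept probes. When only probes above background on every array were kept, Impa2 passed (limma adjusted p = 0.032). It was the 1 of 122 pathway genes that did, where 613 of 21182 features passed. A variance trend, which called 8.84% of all features, and normexp, which called 6.91%, each called Impa1, Impa2 and Plcb1.

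IP3 receptor regulators had a median of 0.05 over 12 tested genes, 9 above 0. Itprid2 (-0.31) and the calcium-binding protein gene Cabp1 (0.30) had adjusted p-values of 0.175 each in limma. The ryanodine receptor complex had a median of 0.06 over 12 tested genes, 10 above 0. S100a1, a calcium-binding modulator of ryanodine receptors and SERCA, was at 0.51 (adjusted p = 0.109), the immunophilin gene Fkbp1b at 0.21 (adjusted p = 0.265) and Hrc, above background on 3 of the 4 arrays, at 0.46 (adjusted p = 0.353).

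Pumps other than SERCA2 and their inhibitors had a median of 0.14 over 6 tested genes. The Golgi calcium pump gene Atp2c1 was at 0.36 (adjusted p = 0.184) with 0.59 at its second probe, and Tmem165 at -0.12. Sarcolipin (Sln), a small inhibitor of SERCA, was not well above background on either control array. Its means were -5.25 after the mimic against -6.81 (limma adjusted p = 0.222). With the control signals raised to the dimmest signal called well above background, the ratio was 1.89, which leaves out the spread between arrays. The limma interval of the log2 difference ran from 0.172 to 2.93. Sln entered the test only through the mimic arrays, so its direction is not counted as support. Normexp gave a log2 difference of 0.17 for Sln.

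Luminal calcium-binding proteins had a median of 0.06 over 17 tested genes, 11 above 0, and beside Canx and Calr the smallest p belonged to Nucb2 (0.35, adjusted p = 0.195). Canx had 0.66 at its second probe. Mitochondrial uptake and contact genes had a median of 0.08 over 17, with Slc8b1 at 0.37, Letm1 at -0.22 and Pdzd8 at 0.37 (limma adjusted p = 0.153, 0.224 and 0.236). Calmodulin, calcineurin and NFAT genes had a median of -0.07 over 23, with the calcineurin regulator Rcan3 at -0.47, the transcription factor gene Nfatc1 at -0.31 and the kinase gene Camk2b at 0.37 (adjusted p = 0.102, 0.164 and 0.174).

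**Figure D4:**
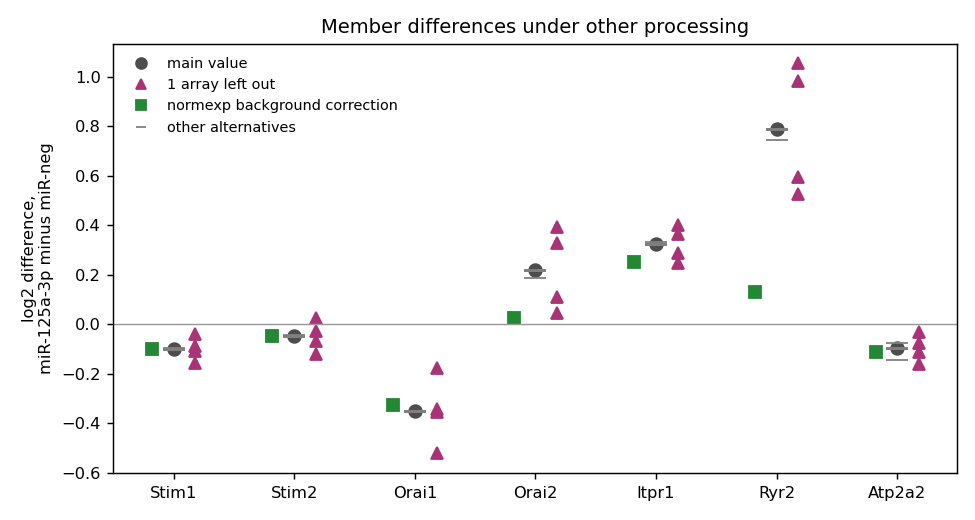
The plot of alternatives gives the log2 difference, miR-125a-3p minus miR-neg, of each tested store gene as reported (circles), with 1 array left out (triangles), with normexp (squares) and under the other settings (dashes). Ryr2 spreads from 0.13 to 1.05, Orai1 from -0.52 to -0.18, and Stim2 reaches 0.02 on the other side of 0 in 1 setting.

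All 4 arrays came from 1 slide and 1 scan, and the slide column of an array followed its group, so that position and group cannot be told apart. With 2 arrays a group, the smallest p an exact permutation could reach is 0.333, so each call rests on limma's spread shared across features.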

How the data were processed

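Total RNA (100 ng per sample, labelled with Cy3) was hybridised to 4 single-colour arrays. Intensities came, per the file headers, from Agilent Feature Extraction 10.7.3.1, whose processed signal was used; its background steps are not given in the sources used here. The deposited value table holds log2 values; after a shift by 1 constant on each array, 100% of its probes matched the log2 of the processed intensity within 0.01.

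Control spots and flagged outlier spots were left out, the log2 values of replicate spots averaged, and the 75th percentile of an array subtracted from its values. Probes well above background on at least 2 of 4 arrays were kept (27250, with 65 left out for flagged spots), and the brightest stood for its gene. RefSeq accessions (GRCr8 table) named 21109 probes (46.3%). The array design is on another build, so no probe coordinates are given, and the coordinates printed above are those of the GRCr8 sequences shown.

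Testing used limma 3.58.1 under R 4.3.3 (lmFit, eBayes, two-sided, Benjamini-Hochberg over 23155 features, threshold 0.05). The code was also run on simulated data. Their spread was drawn from limma's own model, so that run cannot tell whether the model holds for these arrays. The genes and lists were chosen with earlier results of these data known. The naming rule took all store genes and the 3 smallest p-values of each list, with any past the threshold, besides the 3 genes most like the leading store gene. Relatives of the store genes, Saraf and the genes with a stress element were named after their values were seen. The planned normexp correction on mean signals was run on median signals (offset 50), since the columns used hold medians. Precision is limited by the 4 arrays.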

Additional observations from a re-analysis of the deposited data

How the results depend on the processing

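Over 16 alternatives, 0 of the tested store genes passed the threshold. Settings that change only the variance model, the block or the features tested leave a difference as it is, so only those that change the values or leave out an array bear on its sign. Among these, the sign of Stim2 changed: its difference ranged from -0.12 to 0.024 with 1 array left out and was 0.024 without miR-125a-3p replicate 2. The count of 159 features became 1601 with normexp, chosen after seeing the data, 83 under quantile normalization, 613 when every array had to be above background, 2048 with a variance trend and 984 at a threshold of 0.1. It was 0 without a filter on dim probes, where 3956 features had an unadjusted limma p under 0.05, and 0 to 0 with 1 array left out, a lone array being assumed to vary like the other group. The count of 0 pathway genes became 12 with normexp and 17 under a variance trend. It was 1 when every array had to be above background and 2 at a threshold of 0.1. In each of these settings the count of all features rose as well. With normexp and with a variance trend, the share of pathway genes called lay above that of all features. When every array had to be above background, and at a threshold of 0.1, it lay below that of all features. All features include those without a gene symbol, which the lists do not hold, so these shares are not like for like. What caused these shifts was not tested. In the fit with a replicate block (slide rows give the same block), 0 features and 0 store genes passed in limma, with 3968 features and 1 store gene at an unadjusted p under 0.05, Ryr2, which entered the test only through the mimic arrays; same-numbered arrays had deviations correlated at 0.0505, which does not decide whether the numbers pair the samples. Depth of signal limits Ryr2, Orai2 and Itpr3, which were near background.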

Other observations

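With normexp or with a variance trend, 19 genes of the pathway lists passed the threshold, 10 of them in both settings and 0 of them in the reported fit. Normexp on median spot signals called 9.6% of the tested pathway genes beside 6.91% of all features, and the variance trend 13.6% beside 8.84%. The shares over all features again include features without a gene symbol. Those passing in both settings and lying higher were Impa2, Canx, S100a1, Camk2b and Atp2c1, and those lying lower were Tmem178a, Plcb1, Homer3, Impa1 and Nfatc1. With a variance trend the largest of these differences was that of Impa2 (0.68, SE 0.09, limma adjusted p = 0.00192). Itpr2 passed with a variance trend (-0.37, adjusted p = 0.0327), while its adjusted p was 0.0791 with normexp.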
